A study of Sus scrofa with 14 samples.

Results

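Epithelial cells carried in sow milk were compared with epithelial nuclei of the mammary gland, at the day of farrowing (L0, colostrum) and on day 20 of lactation (L20, mature milk). The members were barcodes with at least 300 genes, at most 25% mitochondrial UMIs (unique molecular identifiers, each counting 1 captured RNA molecule), at least 1 UMI of EPCAM, an epithelial adhesion molecule, and 0 UMIs over CD3E, CD163, COL1A1 and PTPRB, which mark T cells, macrophages, fibroblasts and endothelial cells. Of 90291 barcodes deposited for the 6 libraries, 80260 passed the first 2 filters and 9794 were kept, out of 169223 barcodes of nuclei and milk cells in the whole series. The milk libraries gave 3302 of them, with 2732 at L0 and 570 at L20. The gland libraries gave 6492, with 2765 and 1617 in the 2 L0 glands and 1673 and 437 in the 2 L20 glands. They are called EPCAM barcodes below, since the choice rests on that gene, and EPCAM and the 4 other genes of the choice are not results.

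The animals were multiparous sows in their second breeding cycle, with no genetic change or drug treatment named, and no breed is named in the labels or methods. The glands were snap-frozen, their nuclei were isolated, and each of the 4 gland libraries came from its own sow. The 2 milk libraries were made from cells of fresh colostrum and fresh mature milk, 1 library a stage, and whether the milk came from the sows whose glands were sampled is not given. Milk against gland is therefore also cell against nucleus, fresh against frozen material and one library kit against another, and these cannot be told apart.

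Milk is made by luminal cells of the alveoli, which take up amino acids, glucose and fatty acids from blood, secrete caseins and whey proteins through the endoplasmic reticulum and Golgi, and bud fat droplets wrapped in apical membrane. Some of these cells come loose and leave with the milk, together with neutrophils, macrophages and lymphocytes. A nucleus holds newly made, largely unspliced RNA, whereas most messenger RNA of a whole cell is spliced and cytoplasmic.

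The EPCAM barcodes differed in depth. Their median was 2796 and 2481 UMIs in the L0 glands, 1871 and 4112 in the L20 glands, 17265 in milk at L0 and 5710.5 in milk at L20, and their UMIs summed to between 2084080 (second L20 gland) and 50755851 (milk at L0) a library. In 3 of the 4 glands EPCAM was also found in a sizeable share of the barcodes with CD3E. An EPCAM UMI was found in 18.6% (18 of 97) and 19.2% (14 of 73) of these barcodes in the L0 glands. All barcodes that passed gave 25.6% and 17.7% there. In the L20 glands an EPCAM UMI was found in 18.6% and 2.87% of the CD3E barcodes, against 18.0% and 5.49% of all. In milk, 9.84% of the CD3E barcodes at L0 and 0.837% at L20 held EPCAM, against 16.8% and 4.33% of all. The luminal markers summed to 0.432% and 0.499% of the UMIs of EPCAM barcodes in the L0 glands, against 0.401% and 0.462% in the remaining barcodes of the same libraries. They summed to 0.407% and 0.417% in the L20 glands against 0.386% and 0.0824%, and in milk to 0.695% and 0.518% against 0.494% and 0.279%. The paper assigned most nuclei of the glands at L0 and at L20 to epithelial cells. The remaining gland barcodes can thus hold epithelial nuclei without an EPCAM UMI, and near-equal luminal sums alone do not show poor separation. One library stood apart. In the first L20 gland, barcodes chosen for CD3E held a PTPRC UMI, the pan-leukocyte gene, in 6.11% of cases after thinning to 500 UMIs, against 53.8% to 61.0% in the other 5 libraries, and KRT14 in 27.5%. The EPCAM share of the CD3E barcodes of that gland thus does not measure how well EPCAM separates T cells. The counts of calls and many, but not all, of the T cell medians and class calls are therefore also given without this library.

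Among the genes for milk proteins, caseins and beta-lactoglobulin (PAEP) are known to be switched on by prolactin through STAT5, whose binding sites have the letters TTCNNNGAA. Promoters of 300 bases, from 250 before to 50 after each annotated gene start, were read from the RefSeq pig assembly Sscrofa11.1, and this motif, which is its own reverse complement, was searched in each. It was present in 3 of 9 promoters of milk protein genes, in 0 of 11 of milk fat globule genes, and in 1518 of all 20638 promoters (7.36%). The 3 with a match are shown 5′ to 3′ on the strand of the gene with the match in capitals, because these genes were among the most abundant in the milk cells. The CSN1S1 promoter lies on the plus strand at chr8:66887981-66888280, the CSN2 promoter on the minus strand at chr8:66922587-66922886, and the PAEP promoter on a scaffold that is not placed on a chromosome.
CSN1S1: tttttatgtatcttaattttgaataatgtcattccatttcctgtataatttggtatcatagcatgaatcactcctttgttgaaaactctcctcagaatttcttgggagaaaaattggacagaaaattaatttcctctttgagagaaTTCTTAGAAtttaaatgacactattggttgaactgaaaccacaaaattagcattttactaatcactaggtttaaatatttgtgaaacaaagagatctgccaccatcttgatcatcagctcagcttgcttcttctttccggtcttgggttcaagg
CSN2: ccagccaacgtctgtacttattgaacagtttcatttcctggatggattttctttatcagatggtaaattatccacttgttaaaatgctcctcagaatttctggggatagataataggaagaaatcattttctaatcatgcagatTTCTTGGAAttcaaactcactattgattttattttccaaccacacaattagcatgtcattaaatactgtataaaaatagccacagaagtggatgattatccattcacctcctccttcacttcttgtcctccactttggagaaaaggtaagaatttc
PAEP: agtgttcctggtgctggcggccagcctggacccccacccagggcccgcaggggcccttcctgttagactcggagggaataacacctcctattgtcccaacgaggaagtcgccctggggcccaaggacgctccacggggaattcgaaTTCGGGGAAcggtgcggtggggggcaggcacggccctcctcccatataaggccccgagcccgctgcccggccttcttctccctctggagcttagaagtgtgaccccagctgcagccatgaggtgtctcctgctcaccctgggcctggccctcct
The match began 104, 106 and 104 bases before the start, respectively. It is a match of letters and does not show binding.

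Across 14929 genes that passed the filter on low counts, the 2 milk sums were tested against the 4 gland sums with stage as a covariate (edgeR quasi-likelihood test, Benjamini-Hochberg adjustment, called at an adjusted p under 0.05 and a log2 difference beyond 1). In all, 3769 genes (25.2%) were called higher and 3308 (22.2%) lower in milk, and 7044 of the 7077 calls lay on the same side of both glands at both stages. The rule that a gene lie above both glands of its stage at L0 and L20 was met by 4807 genes (32.2%), and the opposite by 5983 (40.1%). The fit had 3 residual degrees of freedom, and with 1 milk library a stage no spread between milk libraries of one stage enters. The test draws the spread of each gene toward that of all genes. Small p-values therefore rest largely on a spread pooled over genes. Levels are given as CPM, the counts in each 1000000 UMIs on TMM-scaled library sizes. This scaling sets the mean log ratio between libraries, with extreme genes left out, to about 0. It does not make most genes equal. The median gene had a log2 difference of −0.36, and with total counts as the only scaling it lay at −2.46, a shift of −2.10. Of all calls, 53.3% were higher in milk with TMM and 12.1% without it (8.54% of genes higher and 62.3% lower). Of the 277 genes of the lists below that were called higher, 42 lay below 0 without TMM, among them ELF5, B4GALT1, KRT5, ITGB1 and CCNE1 of the genes named below. Without the milk library of L20 the lower calls numbered 1963, and without the first L20 gland the calls were 4147 higher and 3493 lower.

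All 7 measured genes for milk proteins were called higher in milk, with a median log2 difference of 8.21 (5.98 without TMM, 6.04 without the milk library of L20 and 9.86 without that of L0). They summed to 35.6% of the UMIs of EPCAM barcodes in milk at L0 and 41.5% at L20, against 1.90% and 1.80% in the L0 glands and 0.213% and 0.0701% in the L20 glands. CSN2, which encodes beta-casein (chr8:66914231-66922636, minus strand), was at 1572 and 1879 CPM in the L0 glands and 313462 in colostrum. At L20 it was at 131 and 10.9 CPM in the glands and 458684 in milk. Both milk sums lay above all 4 glands, and the glands of L20 were far below those of L0. The log2 difference of CSN2 was 10.93 ± 2.56 (edgeR adjusted p = 0.00918). Here and below, the value after ± is an approximate standard error. It is the size of the log2 difference divided by the square root of the F value of the test. The CSN2 call was lost when either L0 gland was left out, at 10.96 (edgeR adjusted p = 0.0724) and 10.999 (adjusted p = 0.0611). PAEP lost its call in the same way.

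LALBA, the alpha-lactalbumin that turns galactosyltransferase into lactose synthase, was at 523 and 472 CPM in the L0 glands against 72556 in colostrum, and at 70.3 and 2.47 in the L20 glands against 119688 in mature milk (log2 difference 10.06 ± 1.97, edgeR adjusted p = 0.00402). PAEP, the main whey protein, was at 3429 and 4620 against 321838 CPM at L0 and at 316 and 80.6 against 370820 at L20 (9.25 ± 2.19, adjusted p = 0.00961). CSN3, the kappa-casein that caps the micelle, was at 1683 and 1410 against 100118 CPM and at 209 and 79.3 against 112508 (8.21 ± 1.47, adjusted p = 0.00263). In these genes milk exceeded the nearer gland by more at L20 than at L0, as in CSN2, where the ratio was 166.8 at L0 and 3490 at L20. CSN1S1, an alpha-casein, was the closest to its glands at L0, with 5068 and 3696 CPM against 71799, and at L20 it was at 157 and 153 against 144111 (8.05 ± 1.89, adjusted p = 0.00932). The antibacterial milk proteins were less far apart by the fitted log2 difference. LTF, the iron-binding lactoferrin, was at 207 and 285 against 5355 CPM at L0 and at 372 and 31.4 against 5018 at L20 (4.54 ± 0.82, edgeR adjusted p = 0.00279), and LPO, lactoperoxidase, differed by 4.999 ± 1.09 (adjusted p = 0.0067).

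Casein RNA was also present in barcodes of other types. After thinning each barcode to 500 UMIs, a CSN2 UMI was found in 98.9% (exact 95% interval 98.4 to 99.3) of the EPCAM barcodes of colostrum and 86.8% (83.8 to 89.5) of those of mature milk. It was found in 46.0% and 49.5% in the L0 glands and in 7.83% and 0.458% in the L20 glands. Barcodes chosen for CD3E, which should not make casein, held one in 87.9% (82.1 to 92.4) and 25.7% (22.6 to 29.1) in the 2 milks, and in 31.6%, 27.1%, 6.11% and 0.592% in the glands. Their median depth before thinning was 1666 and 1774 UMIs in milk and 1090 to 1514 in the glands, and the unthinned shares of EPCAM barcodes were 99.9% and 95.8% in milk and 2.06% to 80.3% in the glands. The colostrum share thus stood only a little above that of T cell barcodes of the same library, and the second L20 gland stood at its background. Levels set them further apart, since the milk proteins made up 1.42% and 0.306% of the UMIs of T cell barcodes in milk. Intervals cover counting error only, and free RNA was not removed.

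Of 9 measured genes of the milk fat globule, 8 were called higher and 0 lower, with a median of 2.95 (0.79 without TMM and 4.22 without the milk library of L0). FABP3, a fatty acid carrier of the lactating gland (chr6:87943003-87950708), was at 213 and 189 CPM in the L0 glands, 40163 in colostrum, 70.2 and 8.90 in the L20 glands and 35249 in mature milk (8.85 ± 1.20, edgeR adjusted p = 0.000681). BTN1A1, butyrophilin of the apical membrane, was at 128 and 90.4 against 2850 CPM at L0 and at 58.6 and 25.2 against 3167 at L20 (5.54 ± 0.56, adjusted p = 0.000177). MFGE8, the lactadherin of the globule surface, differed by 5.63 ± 0.76 (adjusted p = 0.00068), and the droplet coat protein PLIN2 by 2.95 ± 0.57 (adjusted p = 0.00387). XDH, the partner of butyrophilin in budding, did not pass, at 2587 and 2069 against 3219 CPM at L0 and 531 and 94.6 against 2983 at L20 (2.09 ± 0.88, adjusted p = 0.0805), and it was at −0.093 without TMM. The gland level of XDH at L0 was thus close to that of milk while the gland level of BTN1A1 was not.

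**Figure D1:**
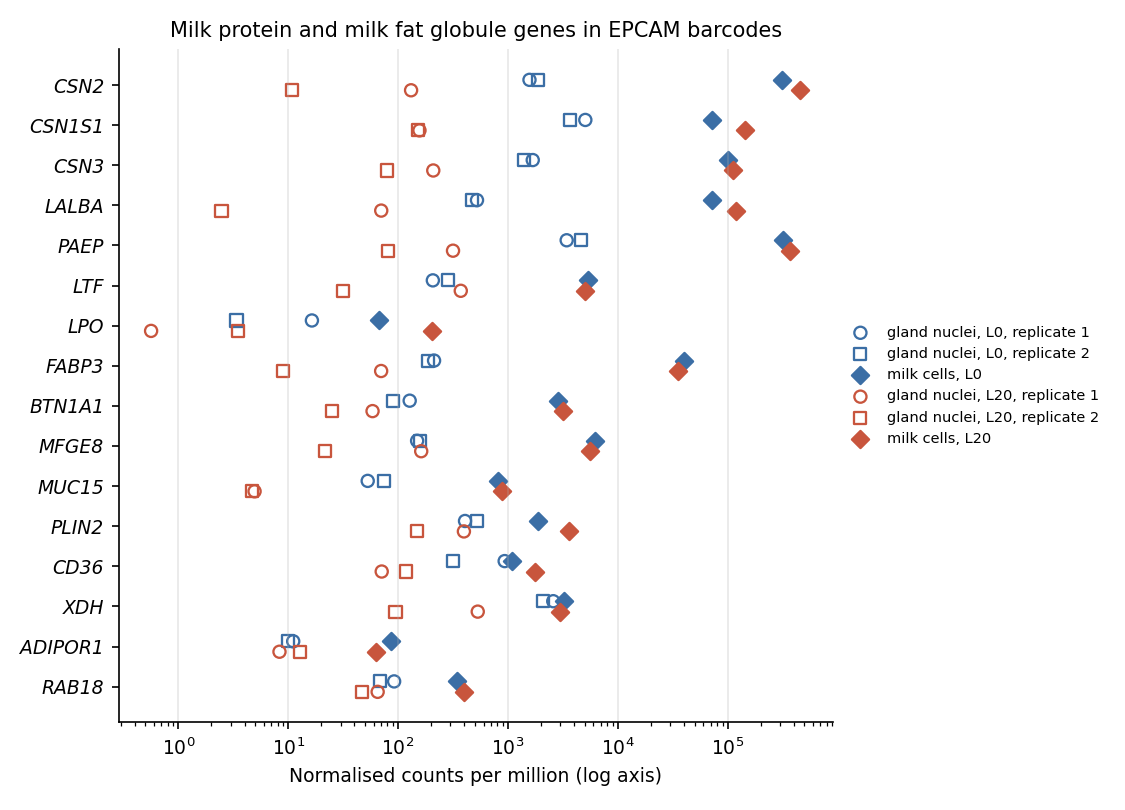
Level in EPCAM barcodes of each library (CPM on TMM-scaled library sizes, log axis) for 16 genes of milk proteins and the milk fat globule, with 1 point a library for the 4 glands and the 2 milks. The milk points lie above both glands of the same stage for each gene, by the least for CD36 and XDH at L0 (1.16 and 1.24 times the nearer gland), and for the caseins the L20 glands lie below the L0 glands.

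Of 23 genes of fatty acid and triglyceride synthesis, 14 were called higher and 0 lower (median 1.89, turning to −0.19 without TMM). SCD, the desaturase that makes oleate, was at 16.8 and 22.4 CPM in the L0 glands against 2244 in colostrum and at 17.4 and 18.0 in the L20 glands against 3178 in mature milk (7.17 ± 0.42, edgeR adjusted p = 2.79e-05). FASN, fatty acid synthase, was at 150 and 132 against 1070 CPM and at 282 and 67.7 against 924 (2.67 ± 0.52, adjusted p = 0.00385). ACACA, which makes the malonyl-CoA that FASN uses, differed by −0.30 ± 0.37 (adjusted p = 0.513). The 3 enzymes of one route thus ranged from a large difference to none that could be detected, on values from which gene length, described below, was not taken off. THRSP, a lipogenic regulator, differed by 6.60 ± 0.46, INSIG1, the sterol sensor partner, by 5.16 ± 0.87, LPL, the lipase that frees blood fatty acids, by 4.15 ± 0.74, and ACLY, which makes cytosolic acetyl-CoA, by 3.31 ± 0.31, all called higher.

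For lactose synthesis and glucose supply, 6 of 9 genes were called higher and 0 lower (median 2.05, −0.13 without TMM). Over all genes, 25.2% were called higher and 22.2% lower. SLC35B1, a nucleotide carrier of the endoplasmic reticulum, differed by 4.24 ± 0.34 (edgeR adjusted p = 6.38e-05). B4GALT1, the catalytic subunit of lactose synthase, was at 340 and 548 CPM in the L0 glands against 1016 in colostrum and at 133 and 117 in the L20 glands against 850 in mature milk (2.05 ± 0.44, adjusted p = 0.00631), and falls just below 0 without TMM. Amino acid and ion transporters gave 11 of 25 higher and 0 lower (median 1.15, −0.95 without TMM), among them the water channel AQP3 (5.04 ± 0.74) and the glutamine carrier SLC1A5 (4.04 ± 0.28).

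The luminal identity list held calls in both directions, on values from which gene length, described below, was not taken off. Of 21 genes, 11 were called higher and 2 lower (median 1.74, −0.28 without TMM), beside 25.2% higher and 22.2% lower over all genes. CLDN3, a tight junction claudin, was at 15.1 and 12.95 CPM in the L0 glands against 1853 in colostrum and at 7.06 and 8.15 in the L20 glands against 1054 in mature milk (7.08 ± 0.35, edgeR adjusted p = 2.79e-05). KRT8, a luminal keratin, was at 11.9 and 16.3 against 651 CPM at L0 and at 123 and 89.7 against 716 at L20 (4.36 ± 0.62, adjusted p = 0.000861), and its partner KRT18 differed by 4.79 ± 0.39 (adjusted p = 6.4e-05). The glands of L20 thus lay closer to milk for KRT8 than those of L0, with ratios to the nearer gland of 5.84 and 39.8. Among the transcription factors, ELF5, which drives the alveolar programme, was at 878 and 878 against 1437 CPM and at 253 and 269 against 1272 (1.57 ± 0.44, adjusted p = 0.02), and turns to −0.62 without TMM. The call of ELF5 was lost under 7 of 18 alternatives, among them leaving out the milk library of L20, the first L0 gland or the second L20 gland. GRHL2, which maintains epithelial genes, was called lower, at 323 and 376 against 70.6 CPM and at 157 and 189 against 26.9 (−2.49 ± 0.33, adjusted p = 0.00061), as was the splicing factor ESRP1 (−1.78 ± 0.33, adjusted p = 0.00291). EHF, GATA3 and CDH1 did not pass, at 0.51 ± 0.35, 0.73 ± 0.41 and 0.75 ± 0.43 (−1.64, −1.35 and −1.35 without TMM).

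In barcodes thinned to 500 UMIs, KRT8 was found in 10.8% (9.69 to 12.1) of the EPCAM barcodes of colostrum and 13.3% (10.7 to 16.4) of those of mature milk, against 1.12%, 1.05%, 8.91% and 6.64% in the glands. The T cell barcodes of the milks held it in 1.72% and 0.563%. In the first L20 gland the T cell barcodes held it in 12.98%, above the EPCAM barcodes of the same library. ELF5 ran the other way at L0, in 44.1% and 41.0% of gland EPCAM barcodes and 22.6% of those of colostrum, while at L20 it was in 17.1%, 18.5% and 20.9%, so the share of barcodes and the TMM-scaled level of ELF5 gave no common order at L0. T cell barcodes held ELF5 in 24.1% and 16.9% in the L0 glands and in 1.72% and 0.141% in the milks.

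Of 26 genes of cell junctions, 4 were called higher (CLDN3, CLDN4, CLDN7 and the plakophilin PKP3), 2 lower, and 20 did not pass (median 0.02, −2.12 without TMM). The 2 lower were PARD3, the polarity scaffold (−3.20 ± 0.37, edgeR adjusted p = 0.000317), and CTNND1, the p120 catenin of adherens junctions (−2.23 ± 0.34, adjusted p = 0.00129). The claudins CLDN7 and CLDN4 differed by 4.84 ± 0.49 and 4.10 ± 0.45. Of 24 integrins, laminins and partners, 3 were called higher (ITGB1, ILK and CD151) and 7 lower (median −0.94, −3.001 without TMM, −1.55 without the milk library of L0, −0.12 without that of L20, and turning to 0.29 after the median of genes of like length was subtracted), beside 25.2% higher and 22.2% lower over all genes, with the integrin ITGB8 the lowest at −3.31 ± 0.44. Of 13 basal and myoepithelial genes, ACTA2, MYH11, MYLK and TP63 were called lower and KRT5, TAGLN and TPM2 higher, beside 22.2% lower and 25.2% higher over all genes. Their median was −0.10 (−2.14 without TMM), and KRT5 lies at about 0 without TMM (−0.02). ACTA2, the smooth muscle actin of myoepithelial contraction, was at 12.1, 9.86, 2.82 and 21.5 CPM in the glands and had 5 UMIs in colostrum and 0 in mature milk. An ACTA2 UMI was found in 5 of 2732 colostrum barcodes (0.183%) and 0 of 570 of mature milk, which allows a share of up to 0.526% of barcodes with a UMI, against 0.956% to 2.86% in the shallower glands. In the luminal progenitor list, 6 of 10 genes were called higher and 1 lower (median 1.29, −0.83 without TMM, and 0.19 after the median of genes of like length was subtracted), the lower one being the receptor KIT (−2.28 ± 0.47), which lost its call without the milk library of L0 and without a stage term, and MFGE8 and LTF of this list were described above.

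The receptors and signal carriers of mammary hormones were mostly lower in milk. Of 15 measured genes, 11 were called lower and 1 higher, with a median of −2.39 (−4.43 without TMM), beside −0.36 over all genes. T cell barcodes of the same libraries gave a median of −2.71 over 11 of these genes (−2.58 without the first L20 gland). The same 11 genes had −2.59 in EPCAM barcodes. The test of EPCAM against T cell barcodes, given below, made 0 calls among the 15. PRLR, the prolactin receptor, was at 411 and 530 CPM in the L0 glands against 54.9 in colostrum and at 186 and 691 in the L20 glands against 32.2 in mature milk (−3.41 ± 0.62, edgeR adjusted p = 0.00279). ESR1, the oestrogen receptor, was at 117 and 107 against 8.08 CPM and at 67.8 and 199 against 18.5 (−3.31 ± 0.55, adjusted p = 0.00184). ERBB4, the neuregulin receptor, differed by −5.10 ± 0.53 (adjusted p = 0.000195). The gland ranges lay wholly above milk for these 3 receptors at both stages. Downstream of them, STAT5B was at 1243 and 1177 against 397 CPM and at 559 and 367 against 136 (−1.69 ± 0.39, adjusted p = 0.00828), whereas STAT5A did not pass (−0.45 ± 0.55, adjusted p = 0.515). CISH, a STAT5 target that feeds back on the prolactin receptor, was the one gene called higher, at 9.33 and 7.95 against 83.8 CPM and at 7.34 and 2.47 against 65.1 (3.48 ± 0.43, adjusted p = 0.000458). The genes of this list are long, with a median of 134 kb, and when the median of all genes in the same length bin is taken off, the list median is −0.997.

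By the rule for named genes, the 12 with the largest ratio of milk to the nearer gland, taking the smaller of the 2 stages, were CCL4, SLAMF7, TGM3, GPR84, CCL5, FABP3, FGFBP1, G0S2, CSN2, CD209, S100A12 and EBP, all called higher by edgeR. The choice and the calls rest on the same sums, so the calls add no support. EBP lay at 7.17 on the log2 scale of the ratio to the nearer gland and SDS, the next, at 7.16. They fell into 2 kinds when the EPCAM barcodes of a milk were set against the remaining barcodes of the same milk. FABP3, FGFBP1, CSN2, CD209 and EBP were higher in EPCAM barcodes at both stages, and the other 7 were higher in the remaining barcodes at both stages. CSN2 had 126092 CPM, here without TMM, in EPCAM barcodes of colostrum against 29416 in the rest, and 157040 against 6350 in mature milk. S100A12, a neutrophil calgranulin, had 418 against 11869 in colostrum and 242 against 6715 in mature milk. TGM3, a transglutaminase, had 548 against 11944 and 512 against 10775. These 7 genes thus stood far above the gland in EPCAM barcodes while being at 0.035 to 0.335 of the level of the other milk cells.

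**Figure D2:**
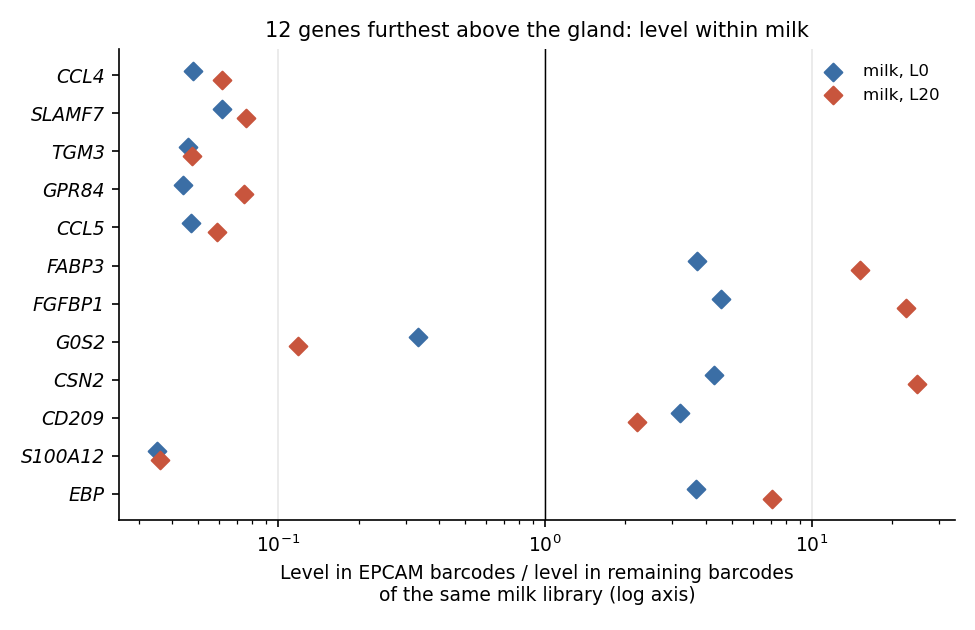
Ratio of the level (CPM without TMM) in EPCAM barcodes to that in the remaining barcodes of the same milk library, on a log axis, for the 12 genes highest in milk against gland, with 1 point for L0 and 1 for L20. FABP3, FGFBP1, CSN2, CD209 and EBP lie above 1 at both stages, and the other 7 below it, with S100A12 the lowest at 0.035 and 0.036.

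FGFBP1, which carries fibroblast growth factors (chr8:11186360-11189317), was at 6.29 and 6.33 CPM in the L0 glands against 1661 in colostrum and at 1.84 and 5.19 in the L20 glands against 940 in mature milk (8.07 ± 0.48, edgeR adjusted p = 2.79e-05). EBP, a sterol isomerase of cholesterol synthesis on chromosome X, was at 2.07 and 0.883 against 351 CPM and at 1.69 and 2.22 against 320 (7.60 ± 0.40, adjusted p = 2.79e-05). CD209, a lectin best known from dendritic cells, was at 2.00 and 0.589 against 300 CPM and at 0.565 and 1.73 against 450 (8.20 ± 0.55, adjusted p = 3.3e-05), and its level in EPCAM barcodes was 3.22 and 2.21 times that in the remaining milk barcodes. The chemokine CCL4 was at 0.666, 0.589, 0.988 and 1.73 CPM in the glands and at 205 and 654 in the milks (8.64 ± 0.37, adjusted p = 2.79e-05). GPR84, a receptor for medium-chain fatty acids found on myeloid cells, had 1 UMI over all 4 gland sums and 3146 and 453 UMIs in the milk sums. S100A12 was at 0, 0.147, 4.80 and 1.24 CPM in the glands and at 1040 and 706 in the milks (10.19 ± 1.22, adjusted p = 0.000375). G0S2, an inhibitor of fat breakdown, differed by 7.98 ± 0.40.

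The 12 lowest were GLP2R, MAGI1, EMC2, PDZRN3, GPR137C, EFNA5, AUTS2, NPAS3, IGF1R, ADAMTSL3, ADAM23 and KIAA1217, all called lower, with KIAA1217 at −4.47 inside and ERBB4 at −4.44 outside the choice. MAGI1, a scaffold of tight junctions, was at 1097 and 1728 CPM in the L0 glands against 27.3 in colostrum and at 634 and 769 in the L20 glands against 15.9 in mature milk (−5.58 ± 0.51). IGF1R, the receptor of insulin-like growth factors, was at 515 and 559 against 17.3 CPM and at 262 and 311 against 7.94 (−5.05 ± 0.39, edgeR adjusted p = 5.22e-05). EFNA5, an ephrin, was at 70.3 and 95.1 against 2.01 and at 232 and 370 against 2.65 CPM (−5.91 ± 0.54). The 12 genes were chosen by their distance to the nearer gland, so a wide gap to milk beside the gap between glands goes with that choice. Their calls come from the same sums and add no support. The 12 genes had a median length of 298 kb and 9 of them were over 100 kb, with AUTS2 at 1229 kb and MAGI1 at 672 kb, against a median of 35.9 kb over all genes. The 11 of the 12 highest that have a length in the annotation had a median of 3.30 kb, and the longest, TGM3, was 44.2 kb.

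Gene length went with the difference over the whole table. Of 12173 tested genes with a symbol, 11438 (94.0%) had a length in the RefSeq annotation. In genes under 5 kb the median log2 difference was 3.28 (842 genes, 75.5% called higher and 2.14% lower), between 20 and 50 kb it was 0.04 (3003 genes), and over 200 kb it was −1.95 (1112 genes, 1.98% called higher and 54.5% lower). Spearman's rho between length and difference was −0.64 across these genes, which share the same 6 libraries and are not independent. T cell barcodes of the same libraries gave medians of 3.80, 0.19 and −2.40 in those bins and a rho of −0.65 over 6037 genes. Without the first L20 gland the T cell medians were 4.33, 0.36 and −2.50 and the rho −0.73 over 5941 genes. Both kinds of barcode thus had a gradient of length in the same direction. How far length sets the values of single genes was not tested.

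**Figure D3:**
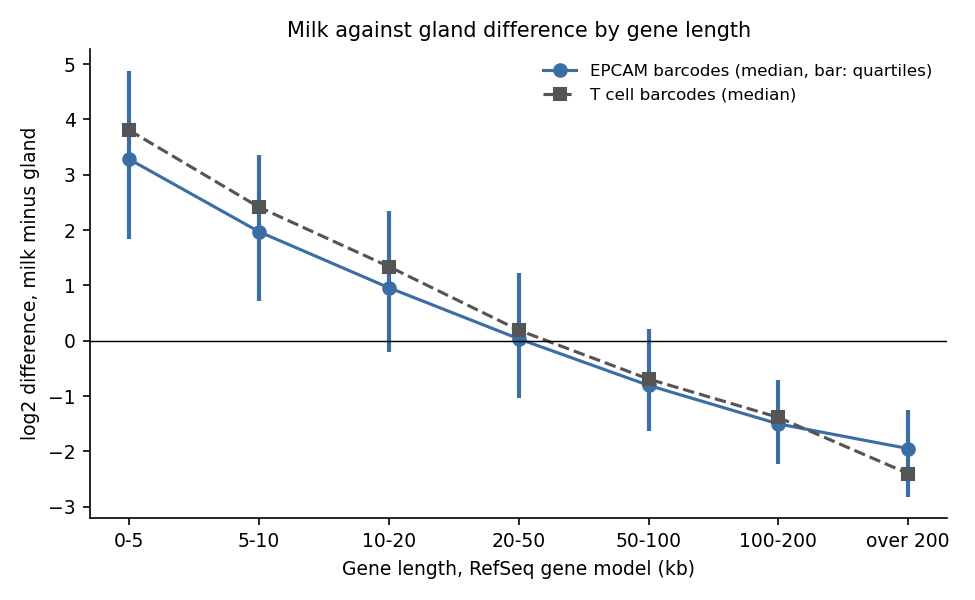
Median log2 difference of milk against gland (TMM-scaled, edgeR) by bin of gene length in kb, with bars from the lower to the upper quartile over the genes of a bin, for EPCAM barcodes and for T cell barcodes. In both, the median runs from above 3 under 5 kb to about −2 over 200 kb.

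Genes of protein folding and secretion were mostly higher in milk. Of 28 genes of the unfolded protein response and secretion, 23 were called higher and 0 lower (median 3.65, 1.58 without TMM, and 2.50 less the median of genes of like length). SEC61B, of the translocation channel, differed by 7.22 ± 0.40 (edgeR adjusted p = 2.79e-05) and HSPA5, the chaperone BiP, by 6.71 ± 0.92 (adjusted p = 0.000742). The sensors ATF6 and EIF2AK3 did not pass, at −0.80 ± 0.30 and −0.63 ± 0.33. Of 15 heat shock genes 13 were called higher (median 4.15, 2.07 without TMM, and 2.62 after the median of genes of like length was subtracted), with HSPA8 at 6.09 ± 0.74 and HSPB1 at 5.50 ± 0.59. All 19 measured immediate early genes, which respond to stimuli within minutes, were called higher (median 4.28, 2.29 without TMM, and 1.83 after the median of genes of like length was subtracted). FOS was at 11.2 and 8.83 CPM in the L0 glands against 4159 in colostrum and at 493 and 227 in the L20 glands against 3041 in mature milk (6.87 ± 1.37, adjusted p = 0.00435), and JUN differed by 6.21 ± 0.90 (adjusted p = 0.00096). FOS in the L20 glands was thus well above the L0 glands and still below milk.

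These same groups were also high in T cell barcodes of milk, where the test called 22.2% of 6894 genes higher and 18.5% lower (2044 and 1684 of 6823 without the first L20 gland). The medians there were 2.29 over 24 genes of secretion, 5.04 over 12 heat shock genes and 3.12 over 12 immediate early genes, and 2.64 over 24, 5.43 over 11 and 4.13 over 12 without that gland. In EPCAM barcodes, leaving out the milk library of L0 or of L20 gave medians of 3.0045 and 4.35 for secretion, 2.73 and 5.19 for heat shock and 3.01 and 5.51 for immediate early genes. Actin, tubulin and other small cytosolic proteins had 21 of 21 called higher in EPCAM barcodes (median 4.91, 2.79 without TMM, and 2.94 after the median of genes of like length was subtracted) and a median of 4.73 in T cell barcodes (5.26 without the first L20 gland). Cytosolic ribosomal proteins had 55 of 56 called higher (median 6.21, 4.08 without TMM, and 3.21 after the median of genes of like length was subtracted) and a median of 6.20 over 55 genes in T cell barcodes (6.79 without that gland). They made up 5.22% and 4.48% of the UMIs of EPCAM barcodes in milk against 0.255% to 0.385% in the glands. Mitochondrial protein-coding genes had 13 of 13 called higher (median 3.45, 1.37 without TMM, and 0.17 after the median of genes of like length was subtracted), and 6 of 13 without TMM, and their share of UMIs was 2.78% and 1.41% in the milks against 0.584%, 0.768%, 1.97% and 1.42% in the glands, so that at L20 the share itself was no higher in milk. Splicing factors and other genes of nuclear RNA had 4 called higher and 8 lower of 16 (median −1.12, −3.24 without TMM). The shares in EPCAM barcodes were 25.2% higher and 22.2% lower over all genes. Among the lower ones were LUC7L3 at −2.05 ± 0.56 and DDX17 at −1.83 ± 0.53.

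Metabolic genes were higher where they passed. Of 22 genes of glycolysis 16 were called higher and 0 lower (median 2.25, 0.14 without TMM), with GAPDH at 5.93 ± 0.42 and LDHA at 4.73 ± 0.36, and the median over 13 genes in T cell barcodes was 2.81 (3.08 without the first L20 gland). Of 21 genes of oxidative stress and metal binding 15 were called higher and 0 lower (median 2.60, 0.55 without TMM), with the ferritin light chain FTL at 6.90 ± 0.55 and the peroxiredoxin PRDX2 at 5.74 ± 0.29. Of 28 cell cycle genes, 6 were called higher and 0 lower (median 1.31, −0.73 without TMM and −0.36 without the milk library of L0), beside 25.2% called higher over all genes. They were PCNA, CCND1, MCM6, BIRC5, TYMS and CCNE1. Apoptosis and survival genes gave 10 called higher and 1 lower of 23 (median 0.94, −1.20 without TMM), with cytochrome c (CYCS) at 7.08 ± 0.41 and the caspase activator APAF1 at −1.56 ± 0.41. Of 16 genes of involution signalling, 6 were called higher and 4 lower, beside 25.2% higher and 22.2% lower over all genes. Their median was −0.58 (−2.77 without TMM, and turning to 0.45 after the median of genes of like length was subtracted). The cathepsins CTSL, CTSD and CTSB were higher, at 5.23 ± 0.45, 3.67 ± 0.45 and 2.74 ± 0.35, and LIFR, the receptor of the involution cytokine LIF, lower at −2.84 ± 0.35.

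**Figure D4:**
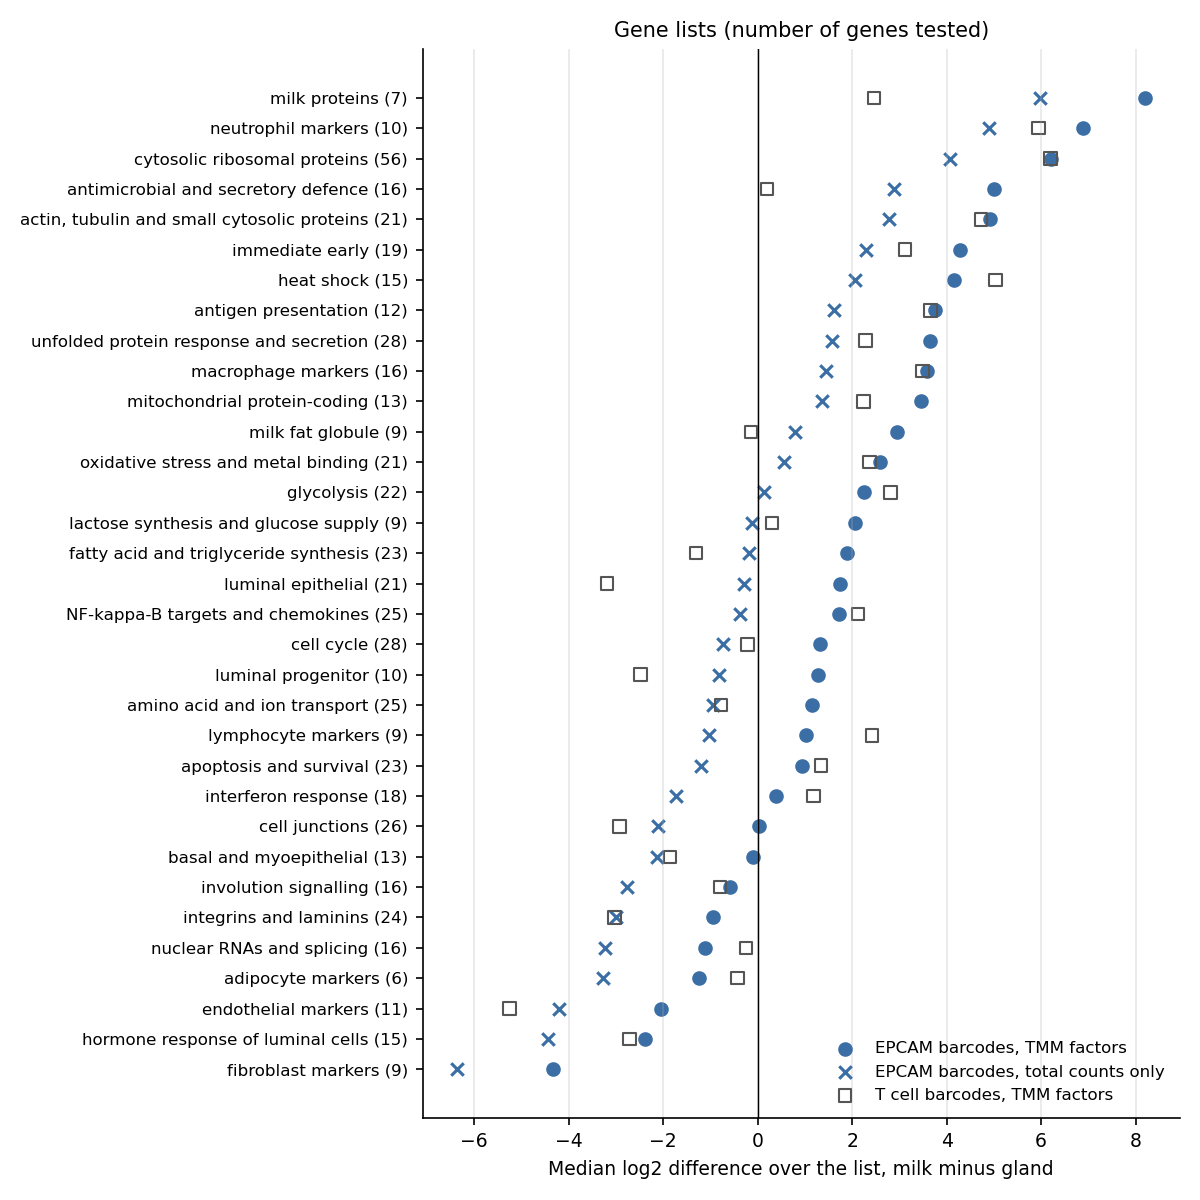
Median log2 difference of milk against gland over the measured genes of each list, for EPCAM barcodes with TMM scaling (filled circles) and with total counts only (crosses), and for T cell barcodes (open squares, over fewer genes). Milk proteins, fat synthesis and luminal genes stand higher in EPCAM than in T cell barcodes, while the ribosomal and cytosolic points of both kinds lie close together (6.21 and 6.20, 4.91 and 4.73), and heat shock genes lie lower in EPCAM barcodes (4.15 and 5.04). The crosses lie about 2.10 below the circles, turning below 0 for the lists from lactose synthesis down to cell junctions. Without the first L20 gland the T cell median moved from 0.19 to 2.16 for antimicrobial and from −0.14 to 1.03 for fat globule genes. It moved from −2.49 to −0.92 for progenitor, from −0.21 to 1.08 for cell cycle and from −0.25 to 0.31 for splicing genes. The adipocyte median moved from −0.43 over 3 genes to 5.04 over 1, and the endothelial from −5.25 over 4 to −3.49 over 3. Milk protein genes moved from 2.47 to 3.15, neutrophil from 5.95 to 6.94 and oxidative stress genes from 2.37 to 3.15. Basal genes moved from −1.86 to −1.03 and integrins from −3.03 to −2.34, and other lists also moved. Leaving out the milk library of L0 moved 14 of the 33 EPCAM medians by over 1.5 times and that of L20 11. The fibroblast point depends on the prior count of the fit, since 2 of its 9 genes had 0 UMIs in both milks.

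Gene length and single libraries also bore on the other lists. After the median of genes of like length was subtracted, the medians were 6.24 for milk protein, 3.57 for fat globule, 1.47 for fat synthesis, 1.69 for lactose, 1.39 for transport, 1.41 for luminal, 0.31 for junction, −0.44 for basal, −0.996 for splicing, 1.69 for glycolysis, 1.63 for oxidative stress, 0.42 for cell cycle and 0.56 for apoptosis genes. Leaving out a library moved the luminal median to 2.38 (first L20 gland) and 2.47 (milk of L20), the oxidative stress median to 1.96 (second L0 gland), the cytosolic protein median to 3.94 (milk of L0), the cell cycle median to 2.15 (milk of L20) and the mitochondrial median to 2.43 and 4.29 (milk of L0 and of L20). Single calls also rested on 1 library or on the scaling. Among the genes of the lists named here, FASN, CD36, PLIN2, PKP3, TAGLN, TPM2, CCND1, MCM6, BIRC5, TYMS and CTSB lost their call without TMM. Without the milk library of L0, FASN, PKP3, KRT5, TPM2, ITGB1, CCND1, MCM6, BIRC5, TYMS, LUC7L3, DDX17, GBP2 and LEP lost theirs, and without that of L20 B4GALT1, CD36, LPO, MYLK, TP63, TPM2, STAT5B, CCNE1, APAF1, LUC7L3, DDX17 and GBP2.

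Among defence genes, 14 of 16 of the antimicrobial and secretory list were called higher and 0 lower (median 4.997, 2.88 without TMM, 3.85 without the milk library of L0, 4.21 without the first L0 gland, and 2.97 after the median of genes of like length was subtracted). PIGR, the receptor that carries IgA into milk, was at 173 and 340 CPM in the L0 glands against 3948 in colostrum and at 176 and 50.9 in the L20 glands against 7840 in mature milk (5.16 ± 0.77, edgeR adjusted p = 0.00107). PGLYRP1, which binds bacterial peptidoglycan, was at 238 and 620 against 40169 CPM and at 781 and 84.3 against 24316 (6.20 ± 1.06, adjusted p = 0.00213). LBP, the endotoxin-binding protein, differed by 3.003 ± 0.72 (adjusted p = 0.0104), and its call was lost without TMM and without either milk library. Both milks lay above all 4 glands for PIGR and PGLYRP1. Of 25 NF-kB targets and chemokines, 14 were called higher and 1 lower (median 1.73, −0.36 without TMM and −0.074 less the median of genes of like length). CXCL8, which draws neutrophils, was at 10.4 and 7.07 CPM in the L0 glands against 1751 in colostrum and at 15.2 and 0 against 2000 at L20 (7.81 ± 1.09, adjusted p = 0.000791), and NFKB1 was called lower (−1.73 ± 0.31, adjusted p = 0.0027). Interferon response genes gave 6 higher and 1 lower of 18, beside 25.2% and 22.2% over all genes (median 0.38, −1.74 without TMM, and turning to −0.25 after the median of genes of like length was subtracted), with ISG15 at 6.44 ± 0.58 and GBP2 at −1.28 ± 0.34, and antigen presentation 9 higher and 0 lower of 12 (median 3.76, 1.61 without TMM, and 1.58 after the median of genes of like length was subtracted), with CD74 at 4.86 ± 0.50.

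Neutrophil and macrophage markers were also higher in milk EPCAM barcodes, beside 25.2% of all genes called higher and 22.2% lower. NF-kB genes made up 0.476% and 0.369% of the UMIs of milk EPCAM barcodes against 2.59% and 2.52% in the remaining milk barcodes. Antigen presentation genes made up 0.182% and 0.212% against 0.633% and 0.856%. Interferon genes made up 0.0322% and 0.0967% against 0.229% and 0.465%, and antimicrobial genes 2.16% and 1.62% against 2.22% and 1.12%. The neutrophil list had 8 of 10 called higher in EPCAM barcodes (median 6.88, 5.51 and 7.92 without the milk library of L0 and of L20) and made up 0.0709% and 0.0477% of their UMIs in milk against 0.000577% to 0.00809% in the glands, while the remaining milk barcodes held 1.95% and 1.07%. The macrophage list had 14 of 16 called higher (median 3.58), at 0.0843% and 0.0888% against 0.0114% to 0.0482%, with 0.903% and 1.16% in the remaining milk barcodes. The lymphocyte list had 4 higher and 1 lower of 9 (median 1.02, −1.03 without TMM, −0.17 without the milk library of L20 and 2.36 without the first L0 gland), at 0.0287% and 0.0210% against 0.0157% to 0.0226%. S100A12 was found in 15.8% and 8.95% of milk EPCAM barcodes after thinning and in 19.0% and 9.56% of milk T cell barcodes, which should not make it, against 0% to 0.538% of gland EPCAM barcodes, so its share stood at the background of the library. PTPRC was found in 8.24% and 4.56% of milk EPCAM barcodes against 1.08% to 4.35% of those of the glands. When barcodes with a UMI of PTPRC, CSF3R or TYROBP were also left out, an alternative that kept 531 of the 2732 colostrum and 241 of the 570 mature milk barcodes, 2963 genes were called higher and 3120 lower. The medians were then 4.65 for neutrophil, 2.27 for macrophage, 4.39 for antimicrobial, 2.81 for antigen presentation, 1.14 for NF-kB, 1.19 for fat synthesis and 7.30 for milk protein genes. Antimicrobial genes then made up 2.20% and 2.29% of the UMIs of milk EPCAM barcodes, and neutrophil genes 0.0317% and 0.0173%. S100A12 is a member of both lists. The part of other cells and of free RNA in the defence genes was not tested beyond this. Of fibroblast genes, 7 of 9 were called lower and 0 higher, and 2 of them had 0 UMIs in both milk sums, DCN among them. Of 11 endothelial genes 6 were called lower and 1 higher (median −2.05, −4.67 without the milk library of L0 and −3.34 without barcodes with those leukocyte UMIs), and of 6 adipocyte genes LEP was called lower and FABP4 higher. Fibroblast genes made up 0.00387% to 0.0383% of the UMIs of gland EPCAM barcodes and 0.000319% and 0.000104% in milk.

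Kit, freezing and cell against nucleus are shared by all barcodes of a library, but whether they act alike on EPCAM and T cell barcodes was not tested. The median depth was 1871 to 4112 UMIs in gland EPCAM barcodes and 17265 and 5710.5 in the milks. For T cell barcodes it was 1090 to 1514 and 1666 and 1774. Ribosomal genes made up 5.22% and 4.48% of UMIs of milk EPCAM barcodes and 15.1% and 15.5% of milk T cell barcodes. With that limit, the milk difference in EPCAM barcodes was tested against that in T cell barcodes of the same 6 libraries. The latter held at least 1 CD3E UMI and 0 of EPCAM, CD163, COL1A1 and PTPRB. There were 79 and 59 such barcodes in the L0 glands, 131 and 169 in the L20 glands, and 174 and 711 in the milks. The fit had 3 residual degrees of freedom, with 1 milk library a stage. Since edgeR draws the spread of each gene toward that of all genes, its small p-values rest largely on a spread pooled over genes. Of 14353 genes, 1059 (7.38%) had a larger and 147 (1.02%) a smaller difference in EPCAM barcodes, and 87.8% of these calls were larger with TMM and 19.4% without it (the median over all genes moved from 0.43 to −0.77). The counts also depended on the reference, with 1325 larger and 1088 smaller against barcodes with CD163 and 1552 larger and 1947 smaller against barcodes with PTPRC. Without the milk library of L20 they numbered 483 larger and 14 smaller, without that of L0 621 larger, and without the first L20 gland, whose T cell barcodes looked least like T cells, 713 larger and 75 smaller.

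The genes of milk production and of epithelial structure were called larger more often than the 7.38% of all genes. Other lists also lay above that share, among them the antimicrobial, secretion and immediate early genes given below. Basal genes gave 5 larger and 1 smaller of 12, involution genes 4 larger of 16, and integrins and laminins 4 larger of 24. Without the first L20 gland these 3 lists gave 4 larger of 11, 4 of 15 and 3 of 24. Milk proteins gave 6 of 7, milk fat globule 8 of 9, fatty acid and triglyceride synthesis 13 of 23, lactose synthesis and glucose supply 4 of 9, luminal genes 16 of 21, cell junctions 20 of 26, luminal progenitor 7 of 10 and transport 12 of 25, and the lactose list also gave 1 smaller, HK1. CSN2 differed by 6.04 ± 1.08 more in EPCAM than in T cell barcodes (edgeR adjusted p = 2.17e-06), FABP3 by 6.15 ± 0.82 (adjusted p = 4.42e-11), and CLDN7 by 7.41 ± 0.83 (adjusted p = 7.9e-16). ELF5 differed by 5.79 ± 0.68 and FASN by 5.74 more. KRT7, which did not pass in the direct test (1.07 ± 0.44, −1.02 without TMM), was larger by 6.55 ± 0.82 (adjusted p = 1.35e-12), with 12, 12, 128 and 10 UMIs in T cell sums of the glands and 0 and 3 in those of the milks. The T cell sums of the glands thus held more KRT7 than those of the milks, and over the 13 luminal genes tested in T cell barcodes the median was −3.19 (−2.27 over 12 without the first L20 gland). Over the 15 junction genes tested in both kinds, the median was −2.93 in T cell and −0.02 in EPCAM barcodes. Over 7 progenitor genes it was −2.49 and 1.08. Without the first L20 gland these T cell medians were −2.78 over 14 and −0.92 over 6. A larger difference is therefore not by itself a rise in EPCAM barcodes. Without that gland the calls of larger differences were 6 of 7 for milk proteins, 8 of 9 for fat globule, 12 of 23 for fat synthesis, 13 of 20 for luminal, 14 of 26 for junction, 5 of 10 for progenitor and 12 of 25 for transport genes, and CSN2, FABP3, CLDN7, ELF5, FASN and KRT7 kept their calls, at 4.83 to 7.03.

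The lists of hormone response, mitochondrial genes and splicing gave 0 calls in either direction, ribosomal genes 0 of 55, glycolysis 0 larger and 1 smaller of 21, and actin and small cytosolic proteins 1 larger of 21. ACTB differed by −0.01 ± 0.61 (edgeR adjusted p = 1), HSPA5 by 0.59 (adjusted p = 0.755) and FOS by 1.20 (adjusted p = 0.42), none of them called. CXCL8 differed by −0.87 (edgeR adjusted p = 0.659) with all libraries and by −7.75 (adjusted p = 0.0898) without the first L20 gland, not called in either. Immediate early genes gave 5 larger of 19, secretion 8 of 27 and antimicrobial genes 8 of 17, above the 7.38% of all genes. NF-kB genes gave 3 larger of 24, heat shock 1 of 15 and interferon 1 larger and 2 smaller of 19. Lymphocyte markers gave 0 larger and 5 smaller of 13. The reference barcodes were chosen for CD3E, so these calls go with that choice and are no result of their own. The markers made up 0.627% and 0.876% of the UMIs of milk T cell barcodes and 0.0337% to 0.388% in the glands. Without the first L20 gland, mitochondrial genes gave 3 larger of 13, ribosomal genes 1 smaller, antimicrobial genes 6 larger, interferon genes 0 larger and 1 smaller, and lymphocyte markers 1 larger and 3 smaller.

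**Figure D5:**
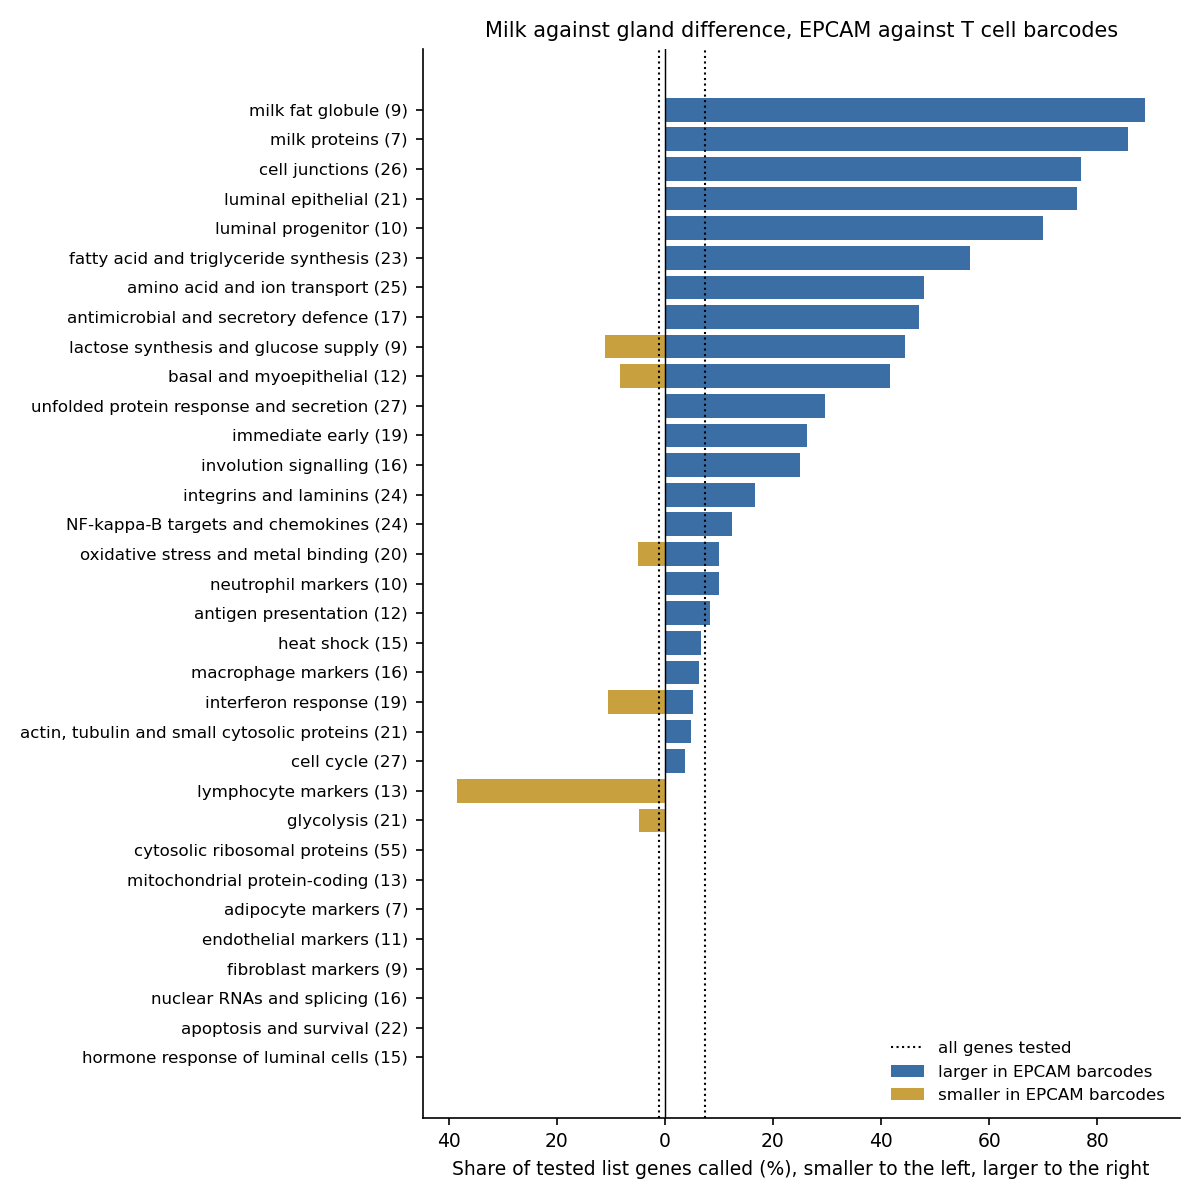
Percent of the tested genes of each list called with a larger (right) or smaller (left) milk difference in EPCAM than in T cell barcodes, by the edgeR test of the difference. Dotted lines mark the shares over all 14353 genes, 7.38% larger and 1.02% smaller. Fat globule, milk protein, junction and luminal lists stand highest. A larger difference is not by itself a rise in EPCAM barcodes, where the junction median was 0.02 (−2.93 in T cell barcodes, over fewer genes).

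The 8 largest of these differences among the calls, LIPG, PRSS8, SOD3, PTHLH, BPIFB1, CCDC57, MICALL2 and ESPNL, all had 0 UMIs in the T cell sums of both milks, which allow up to 9.47 and 1.97 CPM without TMM at 3 counts, so no fold is given. PRSS8, the protease prostasin of epithelial surfaces, had 4336 and 447 UMIs in the milk EPCAM sums (85.4 and 57.9 CPM without TMM). LIPG, endothelial lipase, had 2032 and 121 (40.0 and 15.7 CPM without TMM), and SOD3, the extracellular superoxide dismutase, 3621 and 174 (71.3 and 22.5 CPM without TMM). PTHLH, the parathyroid hormone-related peptide that moves calcium for milk, had 80 and 538, so it was the one of these 4 with more UMIs in the smaller sum of mature milk. The 8 smallest were CCR4, FAM89A, CYP4V2, LTA, 2 genes that both carry the symbol GZMA, CAMK2N1 and SCG5, of which CCR4, FAM89A, CYP4V2, LTA, CAMK2N1 and 1 GZMA lost their call without the first L20 gland. Without the milk library of L20, 11 of the 15 genes that could be tested lost their call, PRSS8, PTHLH and ESPNL of the largest and all 8 of the smallest. Of 16 genes, 7 lost it without the second L20 gland, BPIFB1 and ESPNL among them, and 4 without the milk library of L0. CCR4, GZMA and LTA are genes of T cells, the kind of cell the reference barcodes were chosen for. The GZMA genes had 180 and 1562 UMIs, and 78 and 207, in the milk T cell sums against 17 and 2, and 5 and 0, in EPCAM sums, and reads may be split between these copies.

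Not all genes kept one direction at the 2 stages. At L0 alone, milk lay above both glands for 6702 genes and below both for 6884, and at L20 for 5294 and 7704. For 862 genes milk lay above both glands at L0 and below both at L20, and for 266 the reverse, which was not tested, with 1 milk library a stage. ALDH1A3, a retinaldehyde dehydrogenase of luminal progenitors, was at 28.4 and 22.2 against 91.6 CPM at L0 and at 337 and 132 against 43.9 at L20. SLC12A2, the chloride cotransporter, was at 2.07 and 6.18 against 8.03 CPM and at 70.9 and 116 against 14.4. In both it was the glands that differed most between stages. ATP2B2, the calcium pump of the apical membrane, ran the other way, at 263 and 190 against 48.4 CPM at L0 and at 73.4 and 32.4 against 154 at L20. CLDN10 was at 28.3 and 23.0 against 3.53 and at 10.2 and 18.0 against 34.8 CPM, and GPAM, the first enzyme of triglyceride assembly, at 229 and 171 against 157 and at 85.0 and 52.1 against 165.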

How the data were processed

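UMI count matrices of nuclei from snap-frozen mammary glands and of cells from fresh milk were used. Per the labels and the methods of the study, the authors made these counts with CeleScope on Sscrofa11.1, and the deposited values are whole, not normalized UMI counts per gene and barcode. Free RNA and doublets were not removed here. The tissue label of the milk libraries names the mammary gland, and that they are milk is taken from the methods.

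Of 28358 genes, 15334 had a symbol in the files and 639 took one from the RefSeq annotation. UMIs of the chosen barcodes were summed per library. Sums were tested with edgeR 4.0.16 (TMM, filterByExpr, quasi-likelihood F test, Benjamini-Hochberg) in R 4.3.3, with stage as a covariate. A second fit on EPCAM and T cell sums had a block for library and terms for class, class by stage and class by source. Both fits were checked on simulated counts in which few genes changed, with rises and falls drawn alike. That check cannot speak to the choice of scaling. Depths and totals per library are in the report, and shares were taken after thinning each barcode to 500 UMIs. The replicate numbers of the glands did not pair the samples, since the 2 pairs correlated at 0.0894 and nothing in the labels ties them.

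The named genes were, among genes with a symbol on the same side at both stages and with at least 30 UMIs in the higher source at each stage, leaving out ribosomal and mitochondrial genes, the 12 highest and 12 lowest by the smaller stage ratio to the nearer gland (0 set to 3 counts), the 8 highest and 8 lowest class differences among the calls, and members of 33 gene lists. The members and lists were chosen with earlier results of these data known. Alternatives covered scaling, filters, the epithelial gene, thinning, DESeq2 1.42.0 and leaving out each library. The figures were drawn with matplotlib 3.10.9.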

Additional observations from a re-analysis of the deposited data

Results flagged for a closer look

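The milk difference was not the same in EPCAM and in T cell barcodes of the same libraries for 1059 genes with a larger and 147 genes with a smaller difference in EPCAM barcodes, by the edgeR test of the difference itself. The larger ones (7.38% of all genes) included 6 of 7 milk protein, 8 of 9 fat globule, 20 of 26 junction and 16 of 21 luminal genes. Without the first L20 gland these were 6 of 7, 8 of 9, 14 of 26 and 13 of 20, and the totals 713 and 75. With total counts only the totals were 456 and 1899. A larger difference is not a rise in itself, as the junction median in EPCAM barcodes was 0.02. The smaller ones (1.02%) included 5 of 13 lymphocyte markers (3 of 13 without the first L20 gland), but the reference was chosen for CD3E, so this is no result of its own.

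The direction of the milk difference was opposite at the 2 stages for 862 genes with milk above both glands at L0 and below both at L20, and for 266 genes with the reverse. This difference between stages was not tested.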

How the results depend on the processing

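With total counts only, 1275 genes were called higher and 9303 lower, 1644 and 10579 kept one side at both stages, and 456 and 1899 had a larger and smaller class difference. Of 277 list genes called higher, 42 lay below 0 then, and CA9 was the one list gene that turned under another alternative (thinning). List medians that turned without TMM were −1.20 for apoptosis, −1.74 for interferon and −2.12 for junction genes (each under 1 with TMM), −0.19 for fat synthesis, −0.13 for lactose, −0.28 for luminal, −0.83 for progenitor, −0.36 for NF-kB, −0.95 for transport, −0.73 for cell cycle and −1.03 for lymphocyte genes. After thinning to 500 UMIs the calls were 2156 higher and 2114 lower, 2838 genes were higher at both stages, 184 and 9 class differences were larger and smaller, and the adipocyte median was 0.37. Among other medians that moved, thinning gave 6.91 for milk protein, 3.83 for antimicrobial and 1.28 for lactose genes. It gave 0.39 for cell cycle, 0.34 for transport and −1.02 for basal genes. Larger and smaller class differences numbered 1325 and 1088 against CD163 barcodes and 1552 and 1947 against PTPRC barcodes, and the smaller ones 55 with no filter on low counts. Leaving out a library gave 2582 to 4147 genes higher, 1963 to 3493 lower (lowest without milk L20), 4772 to 5526 and 5878 to 6662 higher and lower at both stages, 483 to 853 larger (lowest without milk L20, 621 without milk L0) and 14 to 211 smaller class differences (14 without milk L20, 75 without the first L20 gland), cell cycle medians of −0.36 to 2.15 and lymphocyte medians of −0.17 to 2.36. The lymphocyte median was −0.34 with at least 2 EPCAM UMIs and −0.46 with KRT8 or KRT18 in place of EPCAM, and less the median of genes of like length, an alternative chosen after seeing the data, the NF-kB median was −0.074, the interferon −0.25, the integrin 0.29 and the involution median 0.45, each of the opposite sign. DESeq2 called 4039 higher and 4185 lower. With a replicate block of the gland numbers, which are not paired by design, 3150 genes were called higher and 2505 lower, and CSN2 was at 10.82 (edgeR adjusted p = 0.0765). Without a stage term the calls were 3567 and 3151. Of 334 called list genes, 164 kept their call under all 18 alternatives that could test them. Apart from the alternatives' own construction (fewer libraries, UMIs or genes), causes were not tested. Depth limits the T cell sums most, at 89390 to 1522756 UMIs a library, and no test was made within a stage, which has 1 milk library.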
